A study of Mus musculus with 6 samples.

Results

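The receptors for fatty acids and acetylcholine on islet cells were described through 7 genes taken by symbol, Ffar1, Ffar2, Ffar3, Ffar4, Gpr119, Chrm3 and Chrm4, of 46959 genes listed in the deposited table. All 7 were present and passed the filter used for testing, which asked for 1 RPKM or more in 2 or more libraries of the 6, where RPKM is the number of reads scaled to the length of the gene and the total of the library. Gene expression had been measured by RNA sequencing in 3 cell populations sorted by fluorescence from islets of adult mice. All mice carried 2 reporters, Ins1-H2b-mCherry, a red nuclear protein driven by the Ins1 promoter, and Ucn3-eGFP, a green protein driven by the promoter of the maturity peptide gene Ucn3. Immature beta cells were positive for mCherry alone, mature beta cells were positive for both reporters, and double negative cells, the non-beta cells of the same islets, lacked both. Each population had 2 libraries from pooled islets that had been cultured overnight without treatment, with replicate 1 labelled male and replicate 2 female, although the series design mentions female mice alone. A class was thus a reading of 2 promoters, and replicate number cannot be told apart from labelled sex. Apart from these sex labels, which go against the design, nothing in the labels tells whether replicate pools were independent. All p-values therefore measure only the spread between these libraries.

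These receptors are G protein-coupled receptors of the cell surface that let islet cells sense lipids and nerve signals. FFAR1 (also called GPR40) and FFAR4 (GPR120) bind long-chain fatty acids, FFAR2 (GPR43) and FFAR3 (GPR41) bind the short-chain fatty acids made by gut bacteria, and GPR119 binds oleoylethanolamide and monoacylglycerols. The muscarinic receptors CHRM3 and CHRM4 bind acetylcholine. FFAR1 and CHRM3 act mainly through Gq proteins, which activate phospholipase C and release calcium from the endoplasmic reticulum, GPR119 acts through Gs and raises cAMP, and FFAR3 and CHRM4 act through Gi and lower it. In beta cells FFAR1 and CHRM3 are known for raising insulin release at high glucose.

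The libraries differed in depth and in the cell types they held. The values corresponded to 2393837 and 3448905 reads in the immature libraries, 23718070 and 26824328 in mature libraries and 22063884 and 22731594 in double negative ones, so a single read weighed most in the immature libraries. The summed RPKM of 9 beta cell markers was 72885 and 78016 for immature cells, 246473 and 263266 for mature cells and 4711 and 7019 for double negative cells. The immature libraries also held markers of other cells: the 7 alpha cell markers summed to 29177 and 19866 RPKM, against 674 and 879 RPKM in mature and 178157 and 171713 RPKM in double negative libraries. The 10 macrophage and other immune markers summed to 1629 and 1701 RPKM for immature cells, 19.4 and 19.7 RPKM for mature cells and 38.7 and 42.1 RPKM for double negative cells. All 10 were above 1 RPKM in each immature library and 2 of 10 in each mature library. The 8 acinar markers summed to 8774 and 27527 RPKM for immature cells, so the replicates differed. They summed to 176 and 121 RPKM for mature cells and 251 and 2094 RPKM for double negative cells. The part of such cells in the receptor results was not tested, and in bulk libraries fewer cells of a type and less RNA per cell cannot be told apart.

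**Figure D1:**
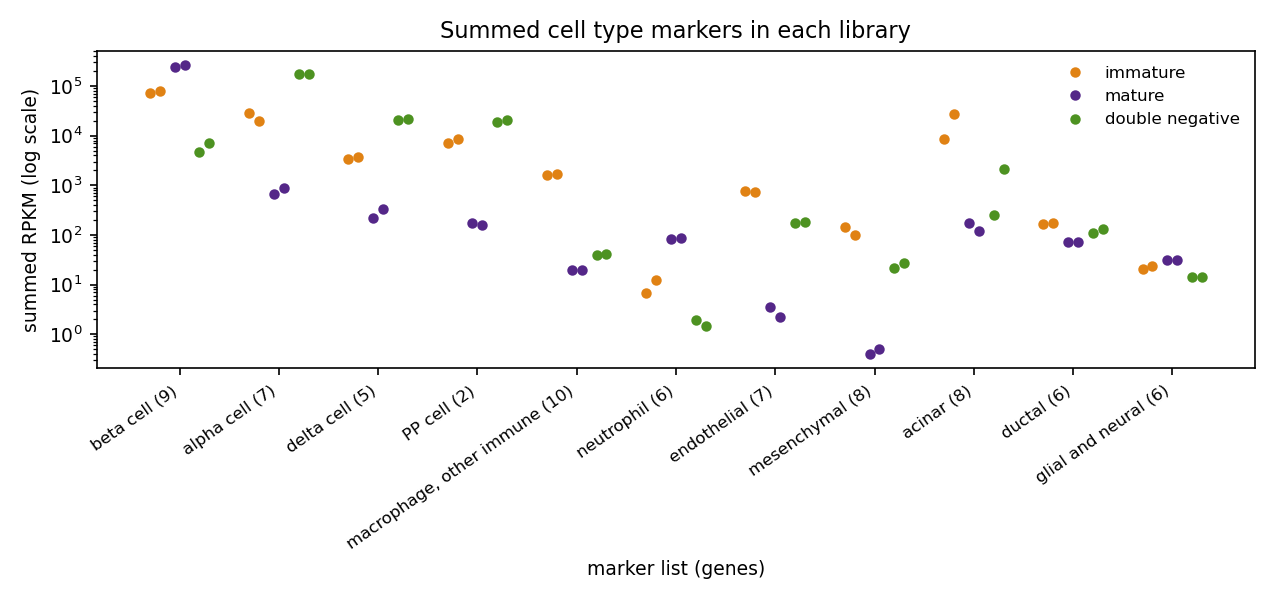
Summed RPKM (log scale) of each marker list, with the number of its genes in brackets, for every library; each point is 1 library, in the order immature, mature and double negative within a list. Endocrine markers other than those of beta cells were lowest in the mature libraries and highest in the double negative ones. Macrophage and other immune, endothelial, mesenchymal and acinar markers were highest in the immature libraries. The neutrophil list was highest in the mature libraries, where S100a9 made up most of it.

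Ffar1 was the most abundant receptor gene in immature and mature cells, and Ffar4 and Gpr119 led in double negative cells. Ffar1 held 36.0% of the summed RPKM of the 7 genes in immature cells and 55.7% in mature cells, and Ffar4 and Gpr119 together held most of it in double negative cells, at 35.8% and 32.9%. The sums themselves lay closer together, at 66.8 and 61.4 RPKM for immature cells, 85.6 and 83.7 RPKM for mature cells and 71.8 and 69.8 RPKM for double negative cells. In mature cells the order of mean levels was Ffar1, Ffar2, Chrm3, Ffar3, Gpr119, Chrm4 and Ffar4, and Chrm4, from 0.880 to 1.46 RPKM, overlapped in range with both Gpr119, from 1.28 to 1.51 RPKM, and Ffar4, from 0.908 to 1.12 RPKM. In immature cells Ffar1 was highest and Ffar4 followed, and Ffar2, Chrm3, Gpr119, Ffar3 and Chrm4 came next with neighbouring ranges that overlapped or lay close to each other, between 3.76 and 8.28 RPKM. In double negative cells Ffar4 and Gpr119 overlapped at the top, with Ffar2, Ffar1, Chrm4, Chrm3 and Ffar3 below them in ranges that did not overlap.

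**Figure D2:**
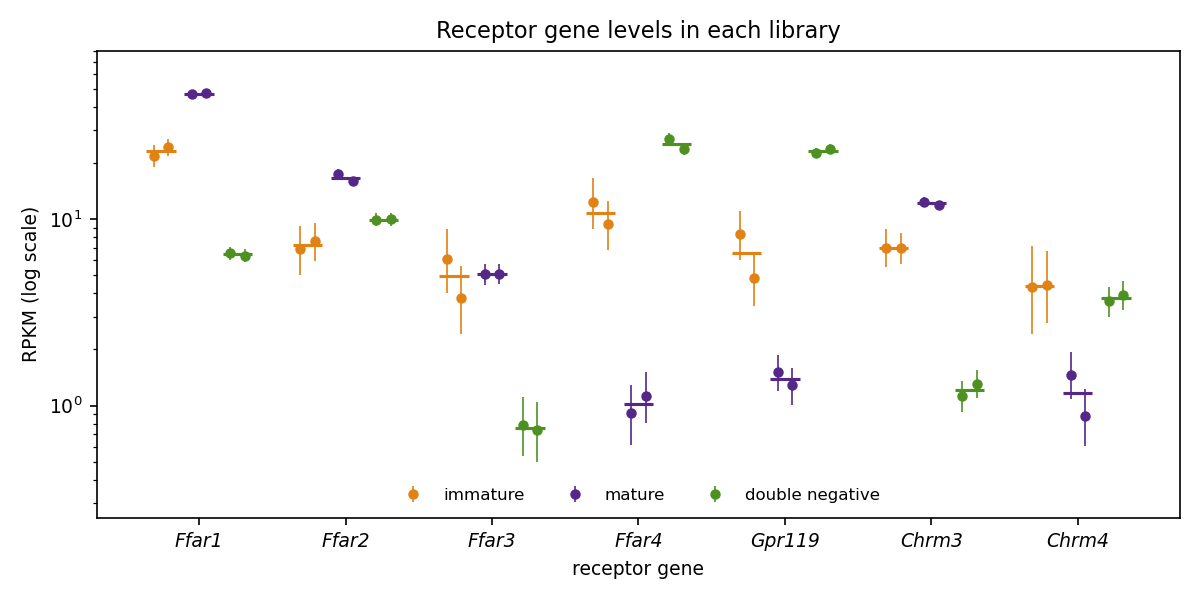
RPKM (log scale) of the 7 receptor genes in each library; points are libraries with 95% Poisson intervals that cover counting error only, and short lines are group means (n = 2 libraries each). Ffar1, Ffar3 and Chrm3 were higher in both mCherry-positive populations than in double negative cells, and Ffar4 and Gpr119 were lowest in mature cells.

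**Figure D3:**
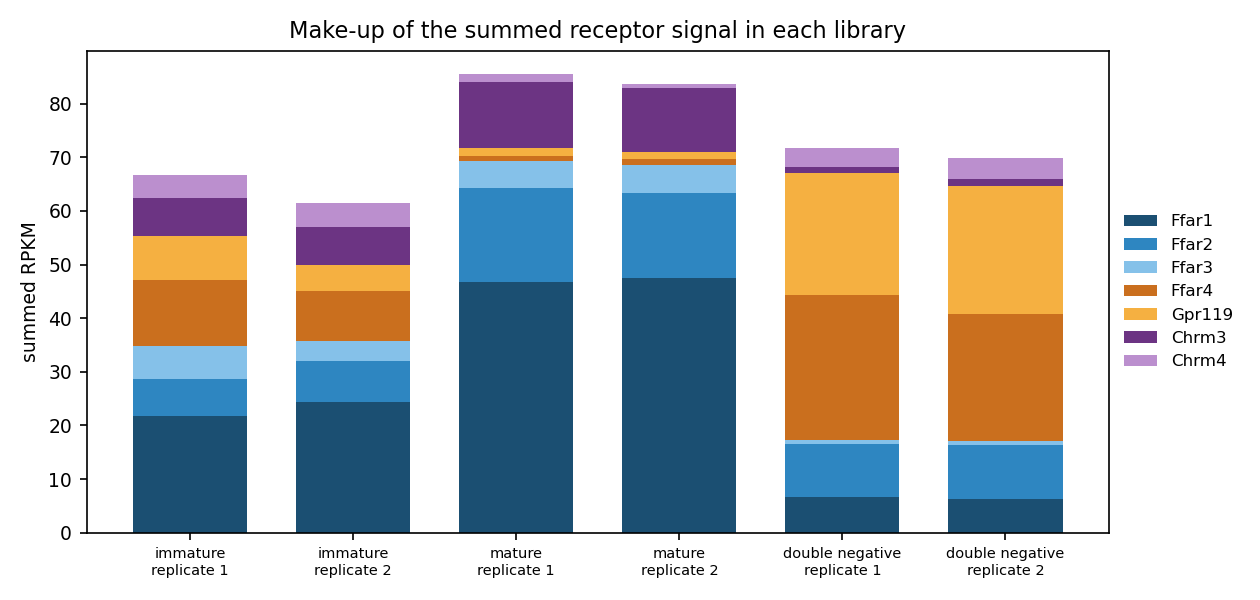
Summed RPKM of the 7 receptor genes in each library, split by gene. Ffar1 is the largest part of the 2 mature bars, and Ffar4 and Gpr119 are the largest parts of the 2 double negative bars.

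The receptors of long-chain fatty acids, Ffar1 and Ffar4, ran in opposite directions. Ffar1 (ENSMUSG00000044453.5, chromosome 7, 30857390 to 30861564, minus strand, GRCm38, GENCODE M21, a protein-coding gene of a single exon) measured 21.8 and 24.4 RPKM for immature cells, 46.8 and 47.5 RPKM for mature cells and 6.58 and 6.36 RPKM for double negative cells. The 3 groups did not overlap, and the immature libraries lay between the other populations. The reads behind them numbered 218 and 351 for immature cells, 4631 and 5316 for mature cells and 606 and 604 for double negative cells. On the log2(RPKM + 1) scale, which understates changes of low genes, Ffar1 was lower in immature than in mature cells by a difference of -1.0 (SE 0.07, limma adjusted p = 8.12e-05) and 2.69 higher in mature than in double negative cells (SE 0.07, limma adjusted p = 6.87e-06). Between immature and double negative cells it was 1.69 higher (SE 0.07, limma adjusted p = 2.53e-05).

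Ffar4 (ENSMUSG00000054200.7, chromosome 19, 38097071 to 38114263, plus strand, 3 exon blocks) measured 12.3 and 9.37 RPKM for immature cells, 0.908 and 1.12 RPKM for mature cells and 27.0 and 23.7 RPKM for double negative cells. Both mature libraries were low, at 30 and 42 reads, and the immature libraries lay between the others at 41 and 45 reads. The mean was 10.7 times as high in immature as in mature cells, with a log2 difference of 2.54 (SE 0.14, limma adjusted p = 3.70e-05). In mature cells it was lower than in double negative cells by a log2 difference of -3.71 (SE 0.14, limma adjusted p = 1.36e-05), and in immature cells by -1.16 (SE 0.14, limma adjusted p = 0.00113). The size of the difference of immature from mature cells was 1.93 after quantile normalization and 3.37 with voom on recovered reads. The nearest protein-coding gene to Ffar4, 2365 bases away, is the retinol-binding protein gene Rbp4, listed here among the delta cell markers, which stood at 158 and 144 RPKM for immature cells, 8.84 and 11.1 RPKM for mature cells and 586 and 564 RPKM for double negative cells. Both neighbours were thus highest in double negative and lowest in mature cells. The delta cell markers summed to 3385 and 3701 RPKM for immature cells, 221 and 338 RPKM for mature cells and 20373 and 21918 RPKM for double negative cells, and their part in the Ffar4 result was not tested.

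The short-chain fatty acid receptors Ffar2 and Ffar3 lie next to Ffar1 on chromosome 7, all on the minus strand. Ffar2 (ENSMUSG00000051314.11, 30818348 to 30823775, 5 exon blocks) ends 30554 bases before Ffar3 (ENSMUSG00000019429.7, 30854330 to 30856178, a single exon) begins, and 1211 bases separate Ffar3 from Ffar1. No annotated gene overlaps any of the 3. Ffar2 measured 6.89 and 7.59 RPKM for immature cells, 17.4 and 15.9 RPKM for mature cells and 9.91 and 9.97 RPKM for double negative cells. The immature libraries were the lowest, on 46 and 73 reads, and the measured values of the groups did not overlap. Poisson intervals were 5.04 to 9.19 and 5.95 to 9.54 RPKM for immature cells. For double negative cells they were 9.14 to 10.7 and 9.20 to 10.8 RPKM, so the intervals of these populations overlapped in part. Counting error thus limits the comparison of immature with double negative cells for Ffar2. Ffar2 was lower in immature than in mature cells (log2 difference -1.10, SE 0.08, limma adjusted p = 8.38e-05), higher in mature than in double negative cells (0.69, SE 0.08, limma adjusted p = 0.000654) and lower in immature than in double negative cells (-0.41, SE 0.08, limma adjusted p = 0.00557). FFAR2 is also known from neutrophils. The alarmin gene S100a9, listed among neutrophil markers, stood at 4.80 and 8.89 RPKM for immature cells, 76.4 and 79.4 RPKM for mature cells and 1.65 and 0.927 RPKM for double negative cells. The neutrophil genes Cxcr2, Ly6g and Mpo were listed at 0 in all 6 libraries, and Csf3r, at 2.08 and 2.89 RPKM for immature cells, was listed at 0 in the other libraries. Their part in the Ffar2 result was not tested.

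Ffar3, the gene closest to Ffar1, was higher in both mCherry-positive populations than in double negative cells. It measured 6.10 and 3.76 RPKM for immature cells, 5.06 and 5.08 RPKM for mature cells and 0.784 and 0.738 RPKM for double negative cells. The mature values fell inside the range of the immature ones, and both populations lay above the double negative libraries. The immature values came from 27 and 24 reads, with 95% Poisson intervals of 4.02 to 8.88 and 2.41 to 5.60 RPKM. The log2 difference of immature from mature cells was -0.06 with a 95% interval of -0.52 to 0.40 (SE 0.19, limma adjusted p = 0.789), so no difference was detectable at this depth. Without immature replicate 1 it was -0.35 (limma adjusted p = 0.0102) and without immature replicate 2 it was 0.23 (limma adjusted p = 0.0423), so a single library set its direction. It passed as higher than in double negative cells in mature cells (1.79, SE 0.19, limma adjusted p = 0.000549) and in immature cells (1.72, SE 0.19, limma adjusted p = 0.000726).

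The bases before the start of Ffar1, Ffar3, Ffar4 and Gpr119 are given because the first pair was higher in mature than in double negative cells and the second pair lower. They are RefSeq sequences of GRCm38.p6, 5′ to 3′ on the gene's strand, ending at the base before the RefSeq start or, for Ffar1 and Ffar4, before the first exon of GENCODE M21. Capitals mark matches, on either strand, to TGCTGAC, a core of the Maf recognition element, CAGATG, an E-box, or TGACGTCA, the cAMP response element.
Ffar1 chr7:30861565-30861720, minus strand: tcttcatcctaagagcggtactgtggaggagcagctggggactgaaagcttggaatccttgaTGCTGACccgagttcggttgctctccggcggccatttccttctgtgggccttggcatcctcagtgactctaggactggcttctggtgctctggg
Ffar3 chr7:30856179-30856428, minus strand: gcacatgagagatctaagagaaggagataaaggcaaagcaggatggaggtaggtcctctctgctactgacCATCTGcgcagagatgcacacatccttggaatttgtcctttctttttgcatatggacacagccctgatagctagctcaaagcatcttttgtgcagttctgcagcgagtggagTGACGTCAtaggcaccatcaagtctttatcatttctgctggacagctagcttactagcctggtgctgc
Ffar4 chr19:38096829-38097070, plus strand: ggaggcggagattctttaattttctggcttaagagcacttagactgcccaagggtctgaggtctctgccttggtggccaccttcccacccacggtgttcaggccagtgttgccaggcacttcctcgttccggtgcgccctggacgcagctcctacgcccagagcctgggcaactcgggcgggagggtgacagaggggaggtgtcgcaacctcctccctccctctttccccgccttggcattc
Gpr119 chrX:48674479-48674728, minus strand: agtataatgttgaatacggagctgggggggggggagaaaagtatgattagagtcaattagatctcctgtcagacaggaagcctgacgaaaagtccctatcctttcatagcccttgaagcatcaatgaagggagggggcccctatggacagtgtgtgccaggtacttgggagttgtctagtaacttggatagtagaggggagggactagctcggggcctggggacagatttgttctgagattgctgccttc
In windows of 250 bases before the RefSeq start, Ffar1 held TGCTGAC from 188 to 182 bases before the start, and a CAGATG from 59 to 54 bases before it that lies in the GENCODE exon and is not shown. Ffar3 held the E-box from 180 to 175 and TGACGTCA from 68 to 61 bases before its start, and the windows of Ffar4 and Gpr119 held none of these motifs. The windows of Chrm3, also higher in mature than in double negative cells, and of Chrm4 held none either. The Chrm4 window, chromosome 2, 91921939 to 91922188, does not adjoin the GENCODE start at 91927249, as the RefSeq start differs. The first window of Ffar2 held TGCTGAC from 225 to 219 bases before the start. Of 32851 such mouse windows, 3.81% held TGCTGAC, 14.4% CAGATG and 1.55% TGACGTCA. TAATTA, the core of many homeodomain sites, and TATAAA, the TATA box, were in none of the windows of the 7 genes, against 4.84% and 12.4% of all windows. None of the 5 motifs overlapped another in these windows, and a match describes letters, not binding.

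Gpr119 (ENSMUSG00000051209.3, chromosome X, 48667979 to 48674478, minus strand, 2 exon blocks), which encodes the Gs-coupled lipid receptor, measured 8.28 and 4.86 RPKM for immature cells, 1.51 and 1.28 RPKM for mature cells and 22.8 and 23.9 RPKM for double negative cells. As with Ffar4, the mature libraries were lowest and the double negative libraries highest, with no overlap. The immature replicates differed by more than those of the other populations, on 45 and 38 reads, and their 95% Poisson intervals of 6.04 to 11.1 and 3.44 to 6.67 RPKM overlapped. The mean was 4.72 times as high in immature as in mature cells (log2 difference 1.62, SE 0.21, limma adjusted p = 0.00101). Gpr119 was lower than in double negative cells in mature cells (-3.35, SE 0.21, limma adjusted p = 7.57e-05) and in immature cells (-1.72, SE 0.21, limma adjusted p = 0.00116). After quantile normalization the difference of immature from mature cells was 0.96. The alpha and PP cell markers ran in the same order: the PP cell hormone genes Ppy and Pyy summed to 7291 and 8546 RPKM for immature cells, 171 and 156 RPKM for mature cells and 19147 and 20419 RPKM for double negative cells, and their part in the result was not tested.

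The muscarinic receptors divided. Chrm3 (ENSMUSG00000046159.16, chromosome 13, 9875486 to 10360847, minus strand), the Gq-coupled receptor, measured 7.04 and 7.01 RPKM for immature cells, 12.4 and 11.9 RPKM for mature cells and 1.13 and 1.31 RPKM for double negative cells. The groups did not overlap, and the immature libraries lay between the others. Chrm3 was lower in immature than in mature cells (log2 difference -0.72, SE 0.08, limma adjusted p = 0.00051) and higher in mature than in double negative cells (2.57, SE 0.08, limma adjusted p = 8.59e-06), where the mean was 10.01 times as high. Between immature and double negative cells the log2 difference was 1.86 (SE 0.08, limma adjusted p = 2.81e-05). The deposited values of Chrm3 are whole reads at a gene length of 4507 bases, against 6253 exonic bases in GENCODE M21, so its level per length depends on the gene model.

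Chrm4 (ENSMUSG00000040495.4, chromosome 2, 91927249 to 91928688, plus strand, a single exon), the Gi-coupled receptor, measured 4.35 and 4.43 RPKM for immature cells, 1.46 and 0.880 RPKM for mature cells and 3.62 and 3.91 RPKM for double negative cells. Mature libraries were lowest, and the immature libraries lay above both others. They rest on 15 and 22 reads with 95% Poisson intervals of 2.44 to 7.18 and 2.78 to 6.71 RPKM, which hold the double negative values and lie above the mature intervals. The log2 difference was 1.32 for immature from mature cells (SE 0.14, limma adjusted p = 0.000469) and -1.15 for mature from double negative cells (SE 0.14, limma adjusted p = 0.00108). The difference of immature from mature cells was 0.58 after quantile normalization and 1.99 with voom. Between immature and double negative cells it was 0.18 with a 95% interval of -0.17 to 0.53 (SE 0.14, limma adjusted p = 0.324), and it turned to -0.08 after median-ratio rescaling and -0.26 after quantile normalization. Of the other muscarinic receptor genes, none passed the filter: Chrm1 reached 0.894 RPKM in immature replicate 2 and at most 0.129 RPKM in the other libraries, Chrm2 reached 0.431 RPKM in the same library, and Chrm5 was listed at 0 in all 6.

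More than 1 gene in 2 passed the test in each comparison, so the receptor counts are given beside those of all genes. For immature against mature cells 6 of 7 receptor genes passed, Ffar4, Gpr119 and Chrm4 higher and Ffar1, Ffar2 and Chrm3 lower, where 65.3% of 13367 tested genes passed, 49.8% higher and 15.5% lower. For mature against double negative cells all 7 passed, Ffar1, Ffar2, Ffar3 and Chrm3 higher and the other 3 lower, against 54.3% of tested genes, 23.1% higher and 31.2% lower. For immature against double negative cells 6 of 7 passed, Ffar1, Ffar3 and Chrm3 higher and Ffar2, Ffar4 and Gpr119 lower, against 56.6% of tested genes, 45.9% higher and 10.6% lower. The median log2 difference of the 7 genes was -0.06 for immature against mature cells, 0.69 for mature against double negative cells and 0.18 for immature against double negative cells, beside 0.29, -0.08 and 0.24 for all tested genes in the same comparisons. The mature difference from double negative cells stood at the 99.5th percentile of all tested genes for Ffar1 and the 99.4th for Chrm3, and at the 0.441 percentile for Ffar4 and the 0.681 percentile for Gpr119. These comparisons share libraries, so their differences are not independent.

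**Figure D4:**
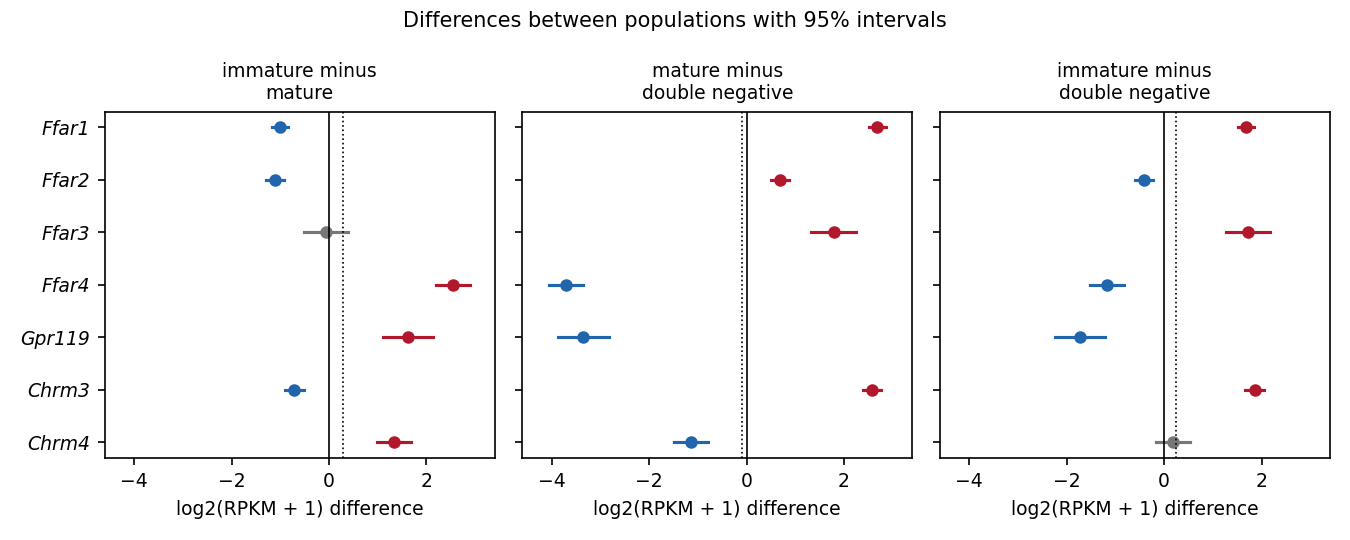
Differences in log2(RPKM + 1) for the 7 receptor genes in the 3 comparisons, with 95% limma intervals; red marks genes called higher, blue lower and grey not called, and the dotted line is the median of all tested genes. Intervals of Ffar3 for immature minus mature cells and of Chrm4 for immature minus double negative cells span 0.

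The place of the immature level between the other populations differed from receptor to receptor. On the RPKM scale, with the double negative mean at 0% and the mature mean at 100%, the immature mean lay at 40.9% for Ffar1 and 53.0% for Chrm3, against 25.6% for Ins1 and 25.7% for Ucn3. The 2 immature libraries gave 37.7% and 44.1% for Ffar1, 53.1% and 52.8% for Chrm3 and 24.1% and 27.1% for Ins1, so the values of both receptors did not overlap those of Ins1. Ffar3 lay at 96.8%, between 123.9% in replicate 1 and 69.7% in replicate 2. Ffar4 lay at 59.7% and Gpr119 at 76.4%, against 86.5% for the glucagon gene Gcg and 84.7% for the somatostatin gene Sst. The 2 immature libraries gave 53.6% and 65.7% for Ffar4, below both hormone genes. They gave 68.5% and 84.2% for Gpr119, which overlapped 83.8% and 89.1% for Gcg and 85.5% and 83.8% for Sst. Ffar2 and Chrm4 lay outside the interval, at -40.0% and -24.1%. These places are descriptions of means of 2 libraries and carry no test.

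**Figure D5:**
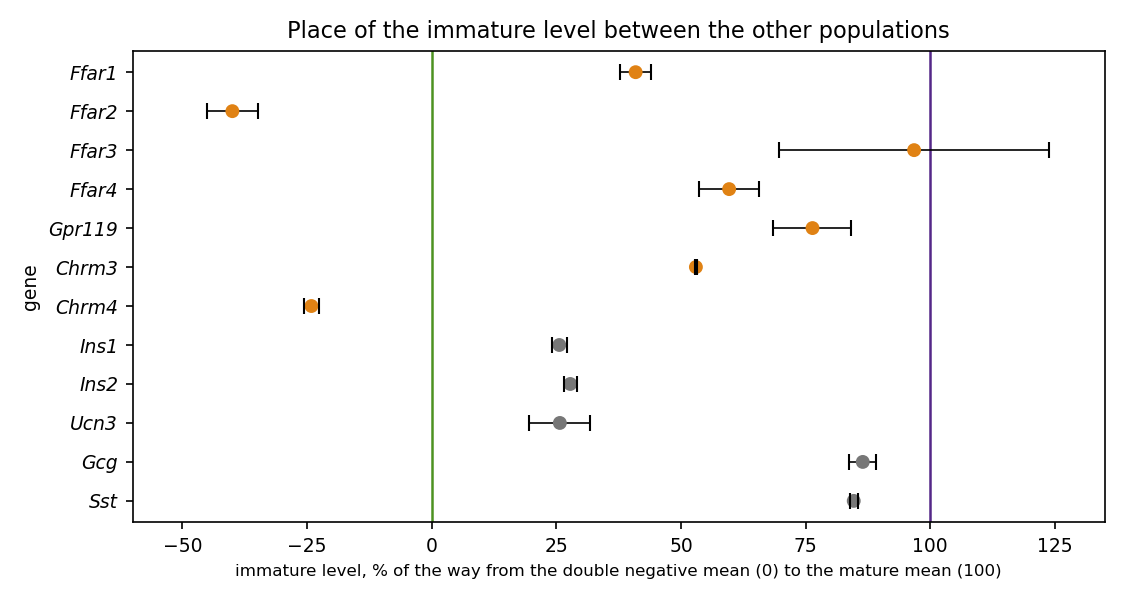
Immature level of each receptor gene (orange) and of the hormone genes Ins1, Ins2, Ucn3, Gcg and Sst (grey), as a percentage of the way from the double negative mean (0, green line) to the mature mean (100, purple line), on the RPKM scale; points are means and bars join the 2 immature libraries. Ffar2 and Chrm4 lie below 0, and Ffar1 and Chrm3 lie to the right of Ins1, Ins2 and Ucn3. The other beta cell markers are not drawn, and by their means they lay on both sides of Ffar1 and Chrm3.

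Likeness of pattern was measured as the root mean square difference between log2(RPKM + 1) profiles over the 6 libraries, each centred on its own mean. Among the receptors the closest pair was Ffar1 and Chrm3, at 0.14, and the next were Ffar3 and Chrm3 at 0.38 and Ffar4 and Gpr119 at 0.40, while Ffar1 and Ffar4 were the farthest apart at 2.62. Among all genes, the 3 closest to Ffar1 were the ectonucleotidase gene Entpd3, the G protein gamma subunit gene Gng12 and the presynaptic protein gene Rims3, at 0.09 to 0.10. Those closest to Chrm3 were Tnfrsf23, Hpgds, a prostaglandin D synthase gene, and Cabp1, which encodes a calcium-binding protein, at 0.07 to 0.08. Exons of Tnfrsf23, and likewise of Fmn1 and Higd1a among the genes close to the other receptors, overlap exons of other annotated genes. Ffar2 was closest to Syt5, a synaptotagmin gene, Map7d2 and Nhlrc1, at 0.08, and Ffar3 to Plat, the gene of tissue plasminogen activator, at 0.09, Fmn1 and Gsto1. Ffar4 was closest to Fev, Higd1a and the inhibitory G protein gene Gnai1, at 0.17, Gpr119 to Cfi, Mamld1 and Gpm6a, at 0.15 to 0.16, and Chrm4 to Cbfb, Apaf1 and Pygl, at 0.09 to 0.10.

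Genes that carry the receptors' signals were read from lists chosen by known role. Their counts stand against the shares of all tested genes, which were 49.8% higher and 15.5% lower in immature than in mature cells, 23.1% higher and 31.2% lower in mature than in double negative cells, and 45.9% higher and 10.6% lower in immature than in double negative cells. Of 18 tested genes of Gq and phospholipase C signalling, 8 were higher and 4 lower in immature than in mature cells, 5 higher and 5 lower in mature than in double negative cells, and 9 higher and 3 lower in immature than in double negative cells. For immature against mature cells its share of higher calls, 8 of 18, was near that of all genes. Itpr2, at 1.95 and 2.23 RPKM for immature cells, passed the filter through these libraries alone. Its direction against both other populations was thus fixed by the filter. Itpr1, a calcium release channel opened by inositol trisphosphate, averaged 6.47 ± 0.343 RPKM for immature cells, 1.28 ± 0.00137 RPKM for mature cells and 19.3 ± 0.0205 RPKM for double negative cells (SD, n = 2 libraries each). Trpm5, a cation channel opened by calcium, ran the other way, at 2.22 ± 0.644 RPKM for immature cells, 5.67 ± 0.440 RPKM for mature cells and 0.112 ± 0.00752 RPKM for double negative cells, and so did the protein kinase C gene Prkcb, at 7.30 ± 0.287 RPKM for immature cells, 14.6 ± 0.199 RPKM for mature cells and 4.11 ± 0.338 RPKM for double negative cells. The list's median log2 difference was -0.02, 0.07 and 0.24 in these comparisons, beside 0.29, -0.08 and 0.24 for all tested genes. Exons of Trpm5, Itpr1, Arrb2, Gng12, Ache, Chrnb2 and Mgll overlap exons of other annotated genes, so part of their reads may belong to these.

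The transducers of Gi and Gs signals contained a large contrast in Gnai1, an inhibitory alpha subunit. It measured 16.5 and 12.5 RPKM for immature cells, 1.01 and 1.14 RPKM for mature cells and 33.0 and 33.6 RPKM for double negative cells, a log2 difference of 2.89 for immature from mature cells (SE 0.13, limma adjusted p = 1.58e-05) and -4.05 for mature from double negative cells (SE 0.13, limma adjusted p = 9.52e-06). Gnai2, which encodes another inhibitory alpha subunit, measured 136 and 156.8 RPKM for immature cells, 161 and 162 RPKM for mature cells and 112.5 and 109 RPKM for double negative cells. Gng12 stood at 74.8 and 87.3 RPKM for immature cells, 165 and 166 RPKM for mature cells and 25.0 and 29.0 RPKM for double negative cells. The Gs alpha subunit gene Gnas measured 10.5 and 9.75 RPKM for immature, 6.04 and 6.03 RPKM for mature and 32.9 and 25.9 RPKM for double negative cells. Its log2 difference was -2.10 for mature and -1.44 for immature from double negative cells, and its exons overlap those of other annotated genes. Of the 11 genes of this list, 5 were higher and 3 lower in immature than in mature cells, 4 higher and 5 lower in mature than in double negative cells, and 4 higher and 4 lower in immature than in double negative cells. Its 5 of 11 higher in immature than in mature cells was near the 49.8% of all genes, and its median log2 difference was 0.19, -0.25 and -0.00 in these comparisons, beside 0.29, -0.08 and 0.24 for all tested genes. Among 6 tested genes of receptor desensitization, 5 were higher and none lower in immature than in mature cells, where 49.8% of all tested genes were higher, with log2 differences of 1.79 for the arrestin gene Arrb1 (SE 0.11, limma adjusted p = 4.75e-05) and 1.68 for Arrb2 (SE 0.09, limma adjusted p = 2.63e-05). The macrophage gene Tyrobp measured 116 and 100.2 RPKM in the same immature libraries and 0.150 RPKM and 0 in the mature ones, and its part in these counts was not tested.

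Genes that make or break down the receptors' ligands were also read. Of 19 tested genes of fatty acid uptake, activation and lipolysis, 10 were higher and 3 lower in immature than in mature cells, 7 higher and 8 lower in mature than in double negative cells, and 13 higher and 3 lower in immature than in double negative cells. The counts for immature against mature cells were near the shares of all tested genes, 49.8% higher and 15.5% lower. Slc27a2, at 1.22 and 1.14 RPKM for double negative cells, passed the filter through these libraries alone. Its lower calls against double negative cells were thus fixed in direction by the filter. The fatty acid translocase gene Cd36, which endothelial cells and macrophages also express, averaged 88.1 ± 8.25 RPKM for immature cells, 0.0716 ± 0.00157 RPKM for mature cells and 1.48 ± 0.197 RPKM for double negative cells, and the lipase gene Lpl averaged 57.6 ± 1.18 RPKM for immature cells, 38.6 ± 0.635 RPKM for mature cells and 108.9 ± 0.463 RPKM for double negative cells. The 7 endothelial markers summed to 774 and 729 RPKM for immature cells, 3.59 and 2.22 RPKM for mature cells and 176 and 186 RPKM for double negative cells, and their part in the Cd36 result was not tested. Among 6 tested genes of monoacylglycerol and acylethanolamide metabolism, which make and degrade GPR119 ligands, 3 were higher and none lower in immature than in mature cells, where 49.8% of all tested genes were higher. The monoacylglycerol lipase gene Mgll averaged 3.18 ± 0.384 RPKM for immature cells, 0.0193 ± 0.00383 RPKM for mature cells and 1.07 ± 0.197 RPKM for double negative cells and passed the filter through its immature libraries. Its direction against mature cells was thus fixed by the filter, although it is among the 3 counted as higher. Napepld, whose product makes acylethanolamides, averaged 4.47 ± 0.101 RPKM for immature cells, 2.90 ± 0.222 RPKM for mature cells and 6.44 ± 0.231 RPKM for double negative cells.

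Only 4 of 12 genes of acetylcholine handling and nicotinic receptors passed the filter. The acetylcholinesterase gene Ache measured 2.53 and 4.20 RPKM for immature cells, 0.328 and 0.427 RPKM for mature cells and 6.53 and 6.87 RPKM for double negative cells, and it passed as lower in mature than in double negative cells (log2 difference -2.48, SE 0.19, limma adjusted p = 0.000149) and higher in immature than in mature cells (1.64, SE 0.19, limma adjusted p = 0.000599). The acetylcholine transporter gene Slc18a3 and the nicotinic subunit gene Chrna3 passed through the immature libraries alone, at 1.04 and 3.12 RPKM for Slc18a3 and 1.47 and 3.71 RPKM for Chrna3, with at most 0.0309 RPKM and 0.0141 RPKM in the other libraries. The filter thus fixed their direction against both other populations. The nicotinic subunit gene Chrnb2 measured 7.83 and 6.09 RPKM for immature cells, 9.93 and 9.46 RPKM for mature cells and 7.33 and 6.82 RPKM for double negative cells, and it passed as lower in immature than in mature cells (log2 difference -0.43, SE 0.12, limma adjusted p = 0.018) and as higher in mature than in double negative cells (0.41, SE 0.12, limma adjusted p = 0.0277). Of 15 other lipid and metabolite receptor genes 9 passed the filter, and 5 of these, Gpr35, Cnr1, Ptger3, Ptger4 and S1pr2, did so through the immature libraries alone, so their direction was fixed by the filter. Hcar2, a receptor for hydroxybutyrate and niacin, passed as lower in immature than in mature cells, at 9.74 and 10.1 RPKM for immature cells and 29.5 and 27.7 RPKM for mature cells. In double negative cells it measured 9.30 and 8.68 RPKM, with no call against immature cells (log2 difference 0.13, limma adjusted p = 0.150). The lactate receptor gene Hcar1 was lowest in mature cells, at 2.42 and 3.0 RPKM for immature cells, 0.539 and 0.522 RPKM for mature cells and 10.9 and 10.5 RPKM for double negative cells. The sphingosine 1-phosphate receptor gene S1pr1, which endothelial cells express, averaged 85.6 ± 2.87 RPKM for immature cells, 0.246 ± 0.122 RPKM for mature cells and 21.4 ± 2.42 RPKM for double negative cells.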

How the data were processed

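RNA of 6 sorted islet cell pools was made into TruSeq libraries, per the labels' protocols. The authors deposited RPKM values for 46959 genes, 1 column per library. Per the submitters' processing notes, the tools were STAR 2.5, featureCounts and edgeR 3.14.0 and the genome GRCm38.p4. For the annotation, strand setting and multi-mapped reads nothing is stated. RPKM shares each library among its genes, so very abundant hormone genes lower all others.

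Depth was recovered from RPKM steps with GENCODE M21 exonic lengths. Of values under 200 reads, 78.1% to 83.8% per library lay within 0.02 of a whole read. For 5 receptor genes the annotated length gave whole reads, and for Ffar4 (1393 bases) and Chrm3 (4507 bases) a length found by search did. Poisson intervals (95%) cover counting error only.

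Genes reaching 1 RPKM in 2 or more libraries, 13367 in all, entered limma 3.58.1 (R 4.3.3) as log2(RPKM + 1), with an intensity trend, group means over all 6 libraries, 3 residual degrees of freedom and Benjamini-Hochberg adjustment at 0.05. The procedure was also run on simulated data with far fewer changed genes than were called here. That run therefore does not measure false calls in these data. Groups and replicate numbers came from the sample titles, and the labels do not say that a number marks a shared pool. Alternatives were 2 pseudocounts, 2 filters, 2 rescalings, a fit of the 4 libraries compared, no trend, array weights, voom on recovered reads, a replicate block and leaving out each library.

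The receptor genes and the lists were chosen with earlier results of these data known. Named were all receptor genes, up to 3 genes of each pathway list with the largest called differences, markers, and the 3 genes of most similar pattern, among genes with a mean of at least 1 RPKM, leaving out predicted genes and pseudogenes. Gnai2, Tyrobp, Rbp4 and the neutrophil genes were named after their values were seen, and the motifs were chosen after the sequences were seen. RefSeq promoter windows (GRCm38.p6) were matched by symbol for all 7 genes.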

Additional observations from a re-analysis of the deposited data

How the results depend on the processing

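All 19 calls among the receptor genes kept their direction and stayed past the threshold in every alternative that tested the gene (17, and 16 for Chrm4, which has too low values for the filter at 5 RPKM). Their sizes moved: for immature against mature cells, quantile normalization gave 0.58 for Chrm4 (1.32 as reported), 0.96 for Gpr119 (1.62) and 1.93 for Ffar4 (2.54), and voom gave 1.99 for Chrm4 and 3.37 for Ffar4. For mature against double negative cells voom gave 3.32 for Chrm3 (2.57), 2.72 for Ffar3 (1.79), -1.74 for Chrm4 (-1.15), -4.62 for Ffar4 (-3.71) and -4.07 for Gpr119 (-3.35). For immature against double negative cells it gave 2.53 for Chrm3 (1.86) and 2.61 for Ffar3 (1.72). The 2 differences that were not called depended on the setting. Ffar3 for immature against mature cells ran from -0.35 to 0.23 when single libraries were left out, was -0.43 after median-ratio rescaling, and passed after quantile normalization at -0.62 (limma adjusted p = 0.0382; adjusted p from 0.0102 to 0.876 over its 17 alternatives). Chrm4 for immature against double negative cells turned to -0.077 after median-ratio rescaling and -0.26 after quantile normalization (limma adjusted p from 0.133 to 0.667 over its 16 alternatives). The rescalings moved the median of all genes for immature against mature cells from 0.29 to -0.09 and -0.17, and the share of calls that were higher from 76.2% to 44.0% and 36.8%. For immature against double negative cells that share was 81.2%, 48.7% and 39.7%, and for mature against double negative cells 42.6%, 52.7% and 52.4%. With single libraries left out, calls over all genes ran from 6335 to 9810 for immature against mature cells (8728 with all libraries). They ran from 4767, without mature replicate 2, to 8982 for mature against double negative cells (7256 with all) and from 5060 to 8848 between immature and double negative cells (7563 with all). A lone library left in a group is assumed to vary like the others. The receptor genes called were 6 or 7, 7, and 6 in these fits. With the replicate block there were 8407, 6803 and 7073 calls over all genes and 6, 7 and 6 among the receptor genes, and the block changed no receptor call. The replicate block also separated the labelled sexes. Deviations of same-numbered libraries correlated at -0.0093, 0.14 and -0.11 across genes, so the numbers were not taken to pair libraries. Depth limits the immature values most: Chrm4 rests on 15 and 22 reads there.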
